A study of Mus musculus with 2 samples.

Results

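The genes described here were 6 effector chemokines, Ccl3, Ccl4, Ccl5, Xcl1, Cxcl9 and Cxcl10, and the chemokine receptor Cxcr3, in popliteal lymph nodes (PLNs) of TNF transgenic (TNF-Tg) mice with Early or Advanced arthritis. They are 7 of the 32285 genes counted in both libraries, found by their symbols, and all 7 were present. They were chosen by earlier measured values of these same libraries, the UMI counts of these genes by stage and cell type, including higher Ccl5 in the Advanced library, so differences between the stages are given as a description and not as independent evidence. The PLN drains the ankle and hindpaw, and the study asked how its cells differ as arthritis in these mice advances. TNF-Tg mice carry a TNF transgene and develop inflammatory-erosive arthritis, and both groups carried it on a C57BL/6 background, so no wild-type node is part of the comparison. The Early library pooled 6 PLNs from 3 male mice aged 5 to 6 months, and the Advanced library pooled 6 PLNs from 3 male mice older than 8 months. The sort kept live nucleated cells of any lineage by Hoechst and Sytox Green staining, and these were counted by 10x Genomics 3' single-cell RNA sequencing.

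Chemokines are small secreted proteins that direct the movement of leukocytes bearing the matching receptor. Ccl3, Ccl4 and Ccl5 are CC chemokines, and Ccl3 and Ccl5 signal through Ccr1. Cytotoxic lymphocytes store or rapidly make these ligands when activated, mature dendritic cells make Ccl5, and B cells stimulated through the antigen receptor make Ccl3 and Ccl4. Xcl1 is made by NK cells and CD8 T cells and attracts the cross-presenting conventional dendritic cells that bear Xcr1. Cxcl9 and Cxcl10 are induced by interferon, the former mainly by interferon gamma, and both bind Cxcr3, a receptor of activated and memory T cells, NK cells and plasmacytoid dendritic cells.

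After cells with fewer than 200 genes were left out, 8221 Early and 8183 Advanced cells remained, with 67596192 and 83137727 unique molecular identifiers (UMIs, counted molecules) and a median of 6643 and 7837 UMIs per cell. Each stage was 1 pooled library, so no difference below has a replicate check, no p value is given, and stage, age, mice and library cannot be told apart. Levels are counts per 1000000 UMIs of the cells described (CPM), and the interval after each value is an exact 95% interval (Poisson for a level, Clopper-Pearson for a share, conditional for a ratio) that covers counting error only. Cells were assigned by raw marker UMIs, with no chemokine or Cxcr3 among the markers: B cells (Cd79a and Ms4a1 among others), T cells (Cd3d, Cd3e, Cd3g), NK cells (Ncr1, Klrb1c, Klre1), monocytes or macrophages (Csf1r, Adgre4, Ace, Cx3cr1, Adgre1, Lyz2), conventional dendritic cells (cDC; Clec9a, Cd209a, Zbtb46, Fscn1, Itgax, Clec10a), plasmacytoid dendritic cells (pDC; Siglech, Ccr9), and neutrophils or basophils. In all 29 comparisons with markers that did not set the gates, the gate held the higher level, by 4.02-fold or more. B-gated cells were 92.4% of Early cells and 71.6% of Advanced cells, and T-gated cells were 1.90% and 13.0%, a 6.85-fold higher share in Advanced (5.79 to 8.16). Cells over the limits set for markers of other lineages, with a tie or with no gate met stayed ungated (227 Early and 817 Advanced cells). The NK, monocyte, dendritic cell, neutrophil and basophil gates set no limit on each other's markers, and the largest marker sum decided. The 2 libraries shared 19 cell barcodes, of which 11 had the same gate in both. They held 8.74% of Early Ccl5, described with that gene, and at most 0.912% of the UMIs of any other member in either library (5 Early Ccl4 UMIs).

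Ccl3, Ccl4 and Ccl5 lie close together on chromosome 11 (GRCm38, the assembly also called mm10). Ccl5 (ENSMUSG00000035042) spans 83525778 to 83530518 and Ccl3 (ENSMUSG00000000982) spans 83647844 to 83649355, both on the minus strand, and Ccl4 (ENSMUSG00000018930) spans 83662584 to 83664683 on the plus strand. Xcl1 (ENSMUSG00000026573) lies on chromosome 1, from 164931644 to 164935527 on the minus strand, where Gm20743 overlaps it on the other strand. Cxcr3 (ENSMUSG00000050232) lies on chromosome X, from 101731535 to 101734269 on the minus strand. Cxcl9 (ENSMUSG00000029417, 92321347 to 92328079) and Cxcl10 (ENSMUSG00000034855, 92346638 to 92348889) are neighbours on the minus strand of chromosome 5, and Art3 overlaps Cxcl10 on the other strand. Whether the counting used strand was not given in the sources used here, so reads of Xcl1 and Cxcl10 could include reads of these partners.

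The 250 bases before the start of Cxcl9 and Cxcl10 are shown because these neighbouring genes, which share the receptor Cxcr3, were held by partly different cells in these nodes. The sequences are from RefSeq (GRCm38.p6, minus strand, 5′ to 3′), which gave promoters for 5 of the 7 members, and are printed in lower case with no part marked.
Cxcl9, chr5:92328080-92328329: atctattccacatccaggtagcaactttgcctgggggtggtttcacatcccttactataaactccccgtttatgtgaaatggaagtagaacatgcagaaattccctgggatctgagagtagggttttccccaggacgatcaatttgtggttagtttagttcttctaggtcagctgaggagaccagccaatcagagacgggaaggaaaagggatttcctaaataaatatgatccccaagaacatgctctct
Cxcl10, chr5:92348890-92349139: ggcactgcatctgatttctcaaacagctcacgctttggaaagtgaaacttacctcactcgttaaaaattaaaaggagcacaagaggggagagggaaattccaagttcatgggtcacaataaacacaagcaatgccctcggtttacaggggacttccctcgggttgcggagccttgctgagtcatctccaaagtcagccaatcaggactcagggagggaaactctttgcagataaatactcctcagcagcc
G and C made up 44.4% of the Cxcl9 window and 48.0% of the Cxcl10 window, below the median of 52.4% over 32851 promoter windows of this length and above the lowest 5% of them, which ended at 34.8%. No motif was searched in them.

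Over all cells, 6 of the 7 members had a higher level in the Advanced library and Cxcl10 had a lower one. Ccl5 differed most, from 3398 UMIs (50.3 CPM) in Early to 37521 UMIs (451 CPM) in Advanced, 8.98-fold (8.67 to 9.30). Xcl1 went from 238 to 1443 UMIs, 4.93-fold (4.30 to 5.68), and Cxcr3 from 318 to 1136 UMIs, 2.90-fold (2.56 to 3.30). These 3 genes were the only members that reached 10 CPM in 1 library with an interval wholly beyond 2-fold; 4 of the 7 reached 10 CPM. Of all 7281 genes at that level, 120 were higher by this rule (1.65%) and 10 were lower (0.137%, with no member among them), and the stage difference in Ccl5 helped to choose the list, so nothing is read from the count. The median log2 ratio was 1.92 for the 4 members and 0.06 for all genes tested. Ccl3 was 2.74-fold higher (2.37 to 3.18; 236 and 795 UMIs), Ccl4 1.79-fold (1.62 to 1.98; 548 and 1207 UMIs) and Cxcl9 2.44-fold (2.06 to 2.91; 180 and 541 UMIs), whereas Cxcl10 was at 0.706 of its Early level (0.611 to 0.814; 416 and 361 UMIs).

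**Figure D1:**
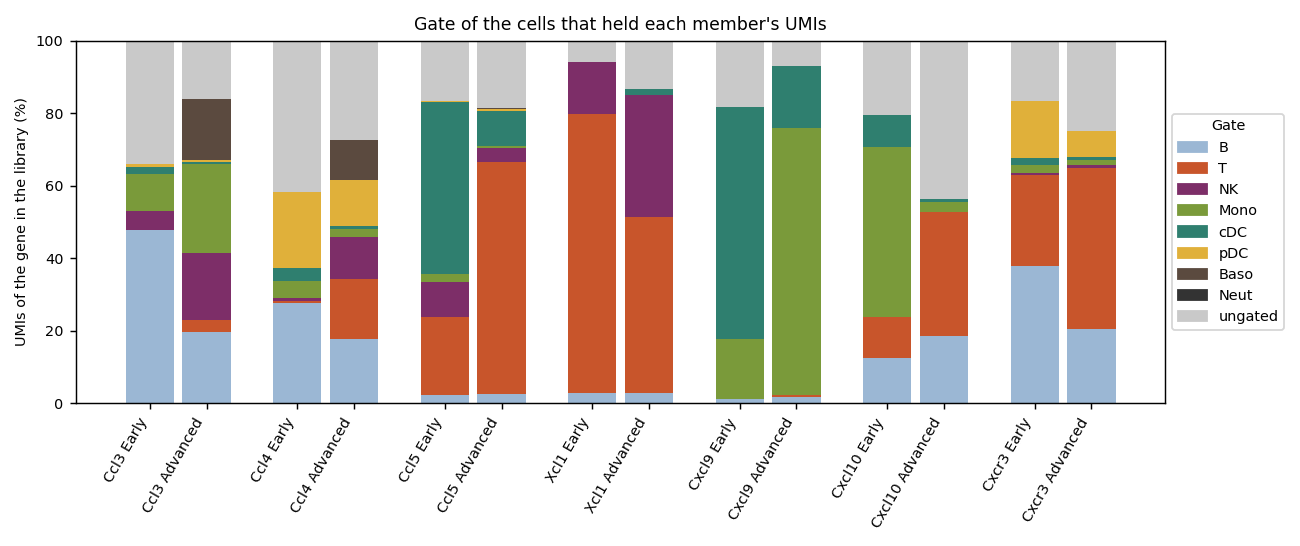
Stacked bars show, for each member and library, the percent of the gene's UMIs (vertical axis, 0 to 100%) held by cells of each gate, with ungated cells in grey. T-gated cells held 21.5% of Ccl5 in Early and 64.1% in Advanced, Xcl1 lay mostly in T and NK cells in both libraries, and Cxcl9 lay mostly in cDC-gated and monocyte-gated cells.

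The members fell into those spread over many cells and those held by few. In the Advanced library Ccl5 was found in 1587 cells, and its highest cell held 1.37% of its UMIs. Cxcr3 was found in 182 Early and 599 Advanced cells, and no Early cell held more than 3.46% of it. Cxcl9, in contrast, was found in only 14 Early and 32 Advanced cells, and 1 cell held 48.3% and 68.0% of it. The Early whole-library levels of 3 other members also leaned on 1 cell each: 26.3% of Ccl3 and 37.2% of Ccl4 lay in the same cell, and 46.2% of Cxcl10 lay in another. Leaving out the highest cell of each library moved the whole-library ratio of Ccl4 from 1.79 to 2.54 (2.25 to 2.88) and that of Cxcl9 from 2.44 to 1.51 (1.17 to 1.97), and turned that of Cxcl10 from 0.706 to 1.20 (1.01 to 1.43). The direction for Cxcl10 therefore rested on a single Early cell.

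**Figure D2:**
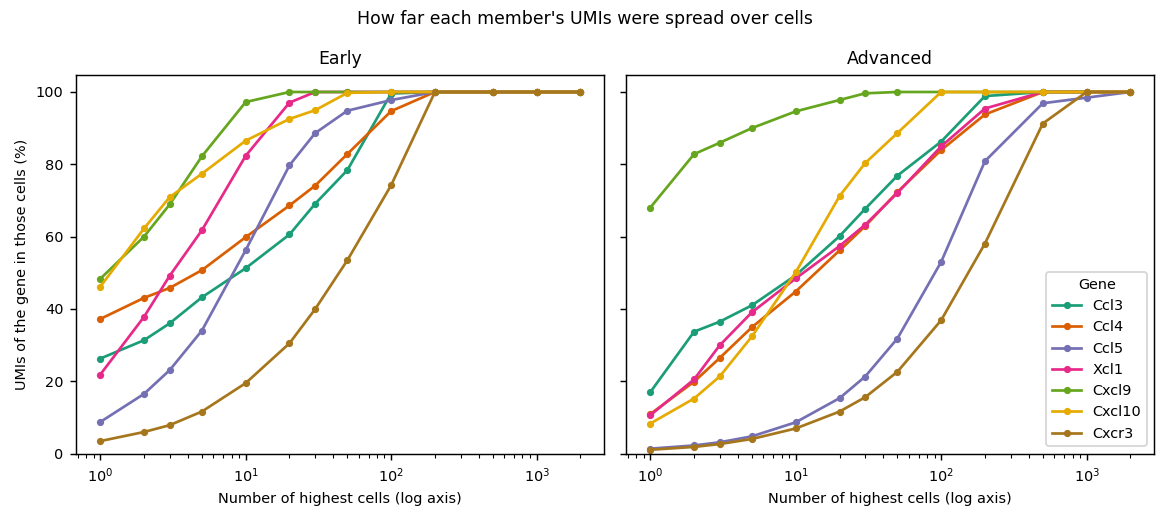
Each line gives the percent of a gene's UMIs (vertical axis) held by its highest cells, as the number of cells counted increases (horizontal axis, log scale), in the Early (left) and Advanced (right) library. Cxcl9 starts at 48.3% and 68.0% in its highest cell, whereas Cxcr3 in both libraries and Ccl5 in Advanced rise slowly over many cells.

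Ccl3, a ligand of Ccr1 made by activated myeloid cells and lymphocytes, had its clearest spread over cells in monocyte-gated cells of the Advanced library. There it was found in 54 of 216 cells (25.0%) with 195 UMIs, against 12 of 123 cells (9.76%) with 24 UMIs in Early. Its level in this gate was 14.6 CPM (9.38 to 21.8) in Early and 76.7 CPM (66.3 to 88.2) in Advanced, a 5.24-fold difference (3.42 to 8.37), and no Advanced cell held more than 16 of the 195 UMIs. To set depth equal, each cell was thinned to 1000 UMIs and the expected share with a Ccl3 UMI was taken, which gave 1.40% in Early and 7.22% in Advanced, with 0 and 3 monocyte-gated cells under that depth left out. B-gated cells, some of which held several Ccl3 UMIs, had 0.961% and 1.52% with a Ccl3 UMI at median depths of 6574 and 7404.5 UMIs, and 0.184% and 0.266% after thinning. The monocyte-gated shares thus lay above the B-gated shares at equal depth in both libraries.

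The other large amounts of Ccl3 lay in single cells. One Early cell held 62 Ccl3, 204 Ccl4 and 177 Ccl5 UMIs with 46 UMIs of the NK markers and 277 of Gzma, a granzyme of cytotoxic lymphocytes; it stayed ungated because its 5 B marker UMIs were 1 over the limit. In the Advanced library 1 of 16 NK-gated cells held 135 of the gate's 148 Ccl3 UMIs and 108 of its 142 Ccl4 UMIs. That cell had 70772 UMIs, 10 of them of NK markers, with 143 Xcl1, 93 Nkg7, 2 Ccl5 and 0 Gzma UMIs and 5 UMIs of the basophil and mast cell markers. Another Advanced cell, 1 of 20 basophil-gated cells, held 133 Ccl3 and 132 Ccl4 UMIs and 132 UMIs of basophil markers, 106 of them of Mcpt8, a basophil protease. The other 19 basophil-gated cells had 0 Ccl3 UMIs, as did all 10 in Early. The Advanced levels of 610 CPM in NK-gated and 455 CPM in basophil-gated cells therefore describe 1 cell each.

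Ccl4, a CC chemokine close to Ccl3 in sequence, was held by pDC in both libraries. It was found in 27 of 57 Early pDC (47.4%) with 115 UMIs and in 31 of 86 Advanced pDC (36.0%) with 154 UMIs. The level was 146 CPM (121 to 176) in Early and 105 CPM (88.7 to 123) in Advanced, a ratio of 0.715 (0.558 to 0.918) that became 0.772 (0.579 to 1.03) without each library's highest cell. After thinning, 10.5% and 7.86% of pDC were expected to keep a Ccl4 UMI, against 0.223% and 0.342% of B-gated cells. Ccl3 was found in only 2 pDC of each library, at 2.55 CPM (0.308 to 9.19) and 2.72 CPM (0.740 to 6.96), near the B-gated levels of 1.92 and 3.03 CPM. Ccl4 in pDC thus was not accompanied by a like level of Ccl3, although the 2 genes were held together by the Early ungated cell and the NK-gated and basophil-gated cells described above.

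T-gated cells held 4 Ccl4 UMIs in 2 of 156 Early cells and 197 UMIs in 57 of 1064 Advanced cells. The level went from 1.78 CPM (0.484 to 4.55) to 16.0 CPM (13.8 to 18.4), a ratio of 9.0 with a wide interval (3.46 to 33.3). CD8 cells with Il2rb, a receptor chain of memory T and NK cells, held 131 of the 197 Advanced UMIs in 33 of 287 cells, and the highest T-gated cell held 26 UMIs. CD8 cells without Il2rb held 3 UMIs in 232 cells. T-gated Ccl3 was 0 UMIs in 156 Early cells and 26 UMIs in 1064 Advanced cells, or 2.11 CPM (1.38 to 3.09), which was below the 3.03 CPM of B-gated cells.

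B-gated cells held 113 Early and 156 Advanced Ccl3 UMIs and 151 and 215 Ccl4 UMIs, which is 47.9% and 19.6% of all Ccl3 and 27.6% and 17.8% of all Ccl4. Much of this came from few cells: 15 Early and 31 Advanced B-gated cells with 3 or more UMIs of the 2 genes held 39.8% and 53.4% of the UMIs. In these cells the level of Egr3, a transcription factor induced by antigen receptor signalling, was 119 CPM (76.4 to 177) and 124 CPM (88.8 to 168), against 39.9 CPM (38.3 to 41.6) and 49.0 CPM (47.1 to 51.0) in B-gated cells with neither gene. Egr2, a close relative, was at 14.9 CPM (3.07 to 43.5, 3 UMIs) and 27.2 CPM (12.4 to 51.6), against 5.15 and 6.81 CPM. Nr4a1, another gene induced by the antigen receptor, was at 49.7 CPM (23.8 to 91.3) and 124 CPM (88.8 to 168), against 35.7 and 47.1 CPM. Myc was at 49.7 CPM (23.8 to 91.3) and 90.6 CPM (61.1 to 129), against 36.6 and 43.6 CPM, and Cd83, a marker of activated B cells, was at 154 CPM (105 to 219) and 160 CPM (120 to 209), against 117 and 86.2 CPM. In Advanced all 5 activation genes had intervals above the level of cells with neither chemokine, and in Early this held only for Egr3. The B-gated cells with 1 or 2 UMIs of the chemokines, 131 Early and 149 Advanced cells, held the remaining 60.2% and 46.6%. In these Early cells all 5 genes lay above the level of cells with neither, as with Egr2 at 25.6 CPM (16.7 to 37.5) and Egr3 at 65.0 CPM (50.3 to 82.7). In Advanced only Egr2 at 20.2 CPM (13.8 to 28.5) and Myc at 58.6 CPM (47.3 to 71.8) had intervals above cells with neither. Egr3 at 43.5 CPM (33.8 to 55.1), Nr4a1 at 54.9 CPM (43.9 to 67.7) and Cd83 at 92.0 CPM (77.7 to 108) did not. No difference between the stages is read from these cells. The limit of 3 UMIs was set after these values were seen, and these cells had medians of 7038 and 9481 UMIs against 6572 and 7392.5 in cells with neither gene.

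Ccl5, a ligand of Ccr1 and Ccr3 that effector and memory T cells express at a high level, had different main source cells in the 2 libraries. In Early, 47.6% of its UMIs (45.9 to 49.3) lay in 50 cDC-gated cells and 31.2% in T-gated and NK-gated cells. In Advanced, 68.0% (67.5 to 68.4) lay in T-gated and NK-gated cells and 9.61% (9.32 to 9.92) in cDC-gated cells. Ungated cells held 16.7% and 18.7%, in Advanced mostly (4419 of 7014 UMIs) cells that carried markers of both B and T cells. Counting all ungated cells with 3 or more CD3 UMIs as T cells raised the Advanced share in T and NK cells to 82.4%.

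The cDC source was a subset. Split by Ccr7, the receptor by which mature dendritic cells reach the node, 23 Early and 48 Advanced cDC-gated cells had Ccr7 UMIs and held 1598 of 1616 and 3512 of 3607 Ccl5 UMIs. Ccl5 was found in 22 of these 23 and 43 of these 48 cells, with medians of 18 and 36 UMIs per cell and highest cells of 297 and 333. The level was 5241 CPM in Early and 4590 CPM in Advanced, a ratio of 0.876 (0.825 to 0.930) that became 0.974 (0.913 to 1.04) without each library's highest cell. The Early cell with 297 Ccl5 UMIs held 8.74% of the gene and carried a barcode that is also in the Advanced library, where it had 837 UMIs and 0 Ccl5. Without the 19 shared barcodes the whole-library ratio was 9.76 in place of 8.98, and the ratio over all cDC-gated cells was 1.26 in place of 1.07. Cells with Clec9a or Xcr1, the markers of cross-presenting cDC, had 0 Ccl5 UMIs in 6 Early cells and 3 UMIs in 14 Advanced cells. This split of the cDC gate was chosen after its values were seen.

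In T-gated cells the Ccl5 level went from 325 CPM (302 to 350) to 1952 CPM, 6.00-fold (5.58 to 6.47), and the share of cells with a UMI from 28 of 156 (17.9%) to 404 of 1064 (38.0%). Ccl5 and Ccl4 were the 2 of 5 members tested in T-gated cells whose interval lay wholly above 2-fold, where 35 of 7434 genes did so (0.471%). By the same rule 296 genes (3.98%) were lower, with 0 members among them. The median log2 ratio over all genes tested was -0.249 in T-gated cells and -0.258 in CD8 cells with Il2rb. A ratio below 1 was thus common in these cells. At equal depth of 1000 UMIs the expected shares were 8.39% and 22.3%, with 1 and 2 cells left out. More T-gated cells and a higher level per T-gated cell thus went together in the Advanced library.

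CD8 cells with Il2rb held 16702 of the Advanced Ccl5 UMIs, 44.5% of the whole library, in 287 cells that were 3.51% of all cells. The same class had 20 cells in Early, 0.243% of the library, so its share of cells was 14.4-fold higher (9.16 to 24.0). Its Ccl5 level was 669 CPM (593 to 751) in Early and 4138 CPM in Advanced, 6.19-fold, and it was 9.31-fold without each library's highest cell, since 1 Early cell held 101 of 284 UMIs. In Early 9 of 20 cells had Ccl5, with 101, 66, 42, 39 and 21 UMIs in the highest 5. In Advanced 198 of 287 had it, 89 were at 0, the median was 13 UMIs, 140 cells had 20 or more and the highest had 513. The class was thus mixed in both libraries, with cells at 0 beside cells with 20 or more UMIs.

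Other lymphocytes differed in how evenly they held Ccl5. NK-gated cells were high in both libraries, at 4018 CPM in 4 of 5 Early cells and 5943 CPM in 13 of 16 Advanced cells, 1.48-fold (1.31 to 1.67). CD8 cells without Il2rb were at 46.8 CPM (25.6 to 78.5) and 296 CPM (276 to 316), with 170 of 232 Advanced cells at 0. These levels leaned on few cells: the highest of 17 Early cells held 11 of 14 UMIs, and the highest Advanced cells held 201 and 166 of 857. Gamma delta T cells had Ccl5 in 0 of 3 Early and 13 of 41 Advanced cells, the latter at 2203 CPM. CD4 cells without Foxp3 had 366 Ccl5 UMIs in Advanced, but 327 of them lay in 1 of 175 cells, and pDC had 213, with 179 in 1 of 86 cells. These latter levels describe single cells and not their gates.

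**Figure D3:**
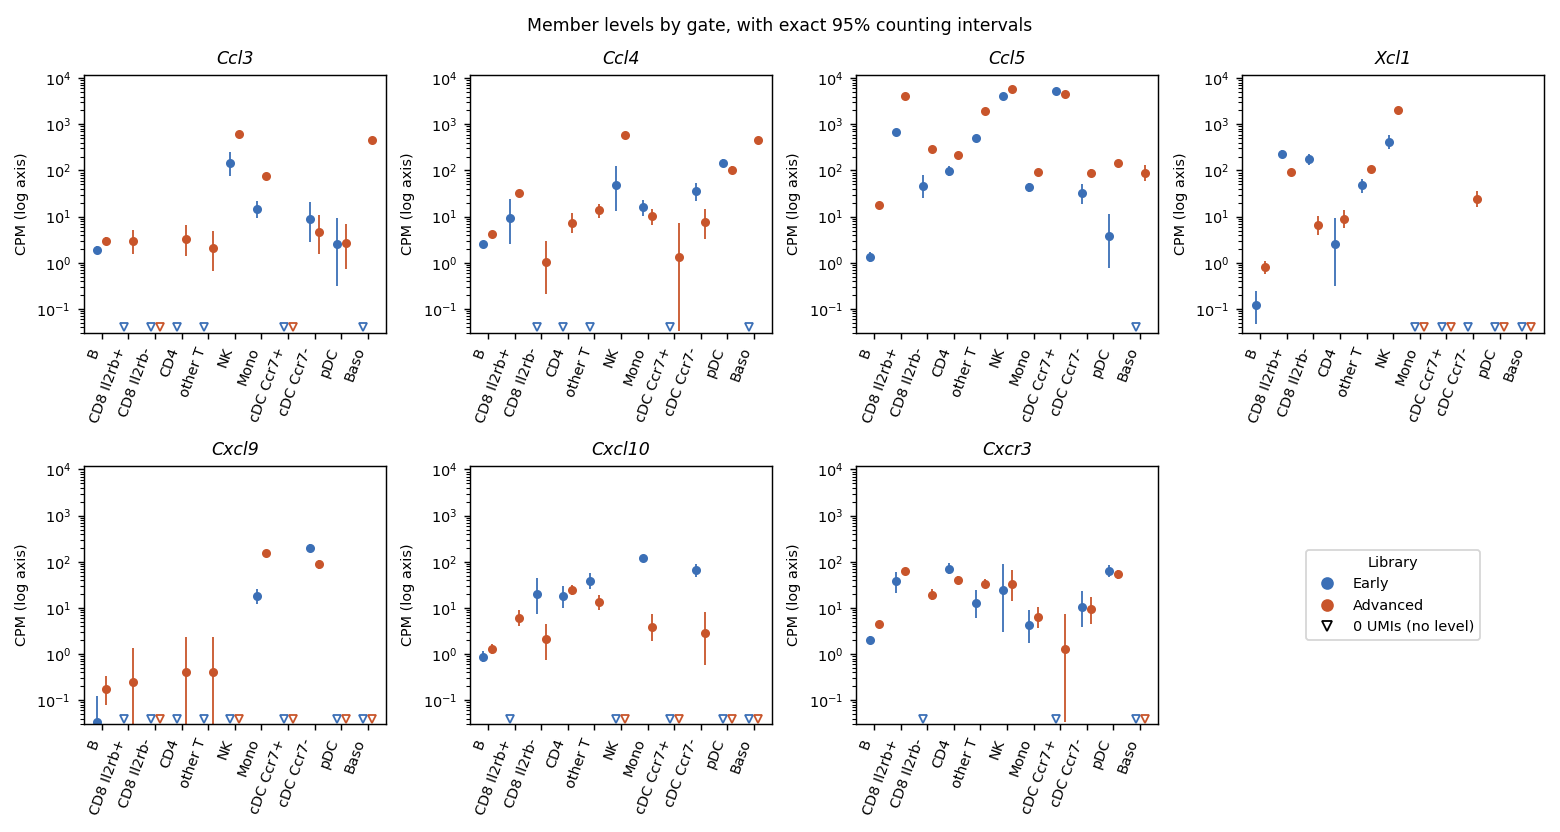
Points give the level of each member in each gate (CPM, log axis) in the Early (blue) and Advanced (orange) library, bars are exact 95% counting intervals, and open triangles at the foot mark gates with 0 UMIs. Ccl5 in CD8 cells with Il2rb stands at 669 CPM in Early and 4138 CPM in Advanced, and in Ccr7-positive cDC at 5241 and 4590 CPM.

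B-gated cells, which should lack Ccl5, gave its background. They held 79 UMIs in 76 of 7593 Early cells (1.00%) and 928 UMIs in 787 of 5860 Advanced cells (13.4%), and after thinning 0.146% and 1.96% were expected to keep one, with 24 and 29 cells left out. The level went from 1.34 CPM (1.06 to 1.68) to 18.0 CPM (16.9 to 19.2), 13.4-fold (10.6 to 17.1), and Ccl5 was the only member that reached the 10 CPM limit in B-gated cells, where 21 of 6928 genes (0.303%) were higher by more than 2-fold. In Advanced, 719 of the 787 cells had 1 UMI, 57 had 2, and 11 had 3 or more with 95 UMIs among them, 62 in 1 cell. Most of the B-gated Ccl5 was thus 1 molecule per cell. Advanced B-gated cells of 500 to 2500 UMIs had Ccl5 in 26 of 126 cells (20.6%). From there the share was 11.3% at 2500 to 5000 UMIs, 12.6% at 5000 to 10000, 14.3% at 10000 to 20000 and 24.9% (44 of 177 cells) above 20000, so it was highest in the deepest cells and next highest in the shallowest.

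The ratio between the gates for Ccl5 lay within the range of the ratios of T and NK cell genes in each library. The Ccl5 level in B-gated cells was 0.296% (0.232 to 0.372) of that in T-gated and NK-gated cells in Early and 0.887% (0.830 to 0.947) in Advanced. Trac, Trbc1 and Trbc2, constant genes of the T cell receptor, were at 0.235%, 0.180% and 0.101% in Early and at 0.868%, 1.22% and 0.936% in Advanced. Nkg7, a cytotoxic granule gene, was at 0.0728% (0.0331 to 0.139) and 0.789% (0.673 to 0.919), Cd8a at 0.279% and 1.39%, and Cd8b1 at 0.176% and 0.754%. Gzma was at 0.10% and 2.22% (1.48 to 3.20), Ms4a4b at 1.24% and 1.40%, and Gzmb at 0.155% in Early and 0 UMIs in Advanced B-gated cells against 56 in T-gated and NK-gated cells. In 8 of the 9 T and NK genes the ratio was higher in Advanced, as it was for Ccl5. The Early Ccl5 interval lay above those of Trbc1 (0.143 to 0.225), Trbc2 (0.0815 to 0.123), Nkg7 and Gzma (0.0476 to 0.186). It lay below that of Ms4a4b (1.12 to 1.37) and overlapped the others. Early cDC-gated cells held more Ccl5 UMIs (1616) than T-gated and NK-gated cells (1061), a source that this ratio leaves out. Advanced B-gated cells had 5.46 Ccl5 UMIs per Nkg7 UMI (4.63 to 6.47), close to the 4.86 (4.71 to 5.00) of T-gated and NK-gated cells, whereas the Early values were 8.78 (4.40 to 19.9) on 9 Nkg7 UMIs and 2.16 (1.94 to 2.41). The B-gated level is taken here as the background for Ccl5. Monocyte-gated cells stood above it, at 43.3 CPM (33.8 to 54.6) and 92.0 CPM (80.6 to 105), with at most 18 and 43 UMIs in a cell.

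**Figure D4:**
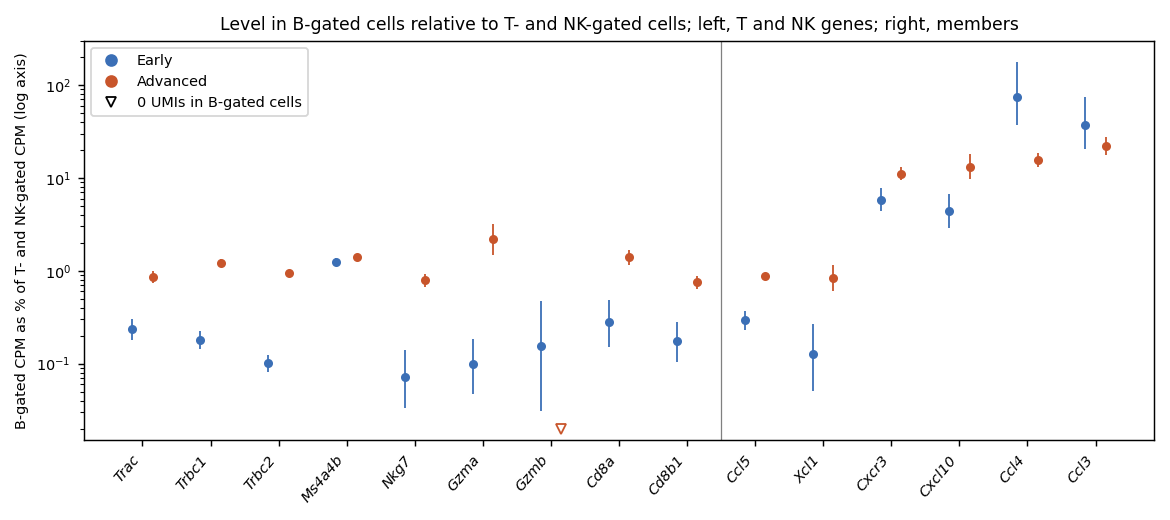
Points give the level in B-gated cells as a percent of the level in T-gated and NK-gated cells (log axis) for 9 T and NK genes (left of the line) and 6 members (right), Early in blue and Advanced in orange, with exact 95% intervals; the open triangle marks 0 UMIs. Ccl5 at 0.296% and 0.887% and Xcl1 at 0.128% and 0.843% lie among the T and NK genes, whereas Cxcr3, Cxcl10, Ccl4 and Ccl3 lie at 4.39% or more.

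Xcl1, the ligand of Xcr1, was held by T-gated and NK-gated cells, with 91.2% of its UMIs in Early (217 of 238) and 82.1% in Advanced (1185 of 1443). Its level over these cells together was the same within counting error, with a ratio of 1.01 (0.876 to 1.18), so the 4.93-fold higher whole-library level went with the larger number of these cells. NK-gated cells went from 34 UMIs in 3 of 5 cells to 485 UMIs in 14 of 16 cells, or from 415 CPM (288 to 580) to 1997 CPM (1824 to 2183), 4.81-fold (3.40 to 7.03). Of the 485 UMIs, 153 and 143 lay in 2 cells, and without each library's highest cell the ratio was 5.60 (3.57 to 9.29). T-gated cells went from 81.3 CPM (69.97 to 93.99) to 56.8 CPM (52.7 to 61.2), a ratio of 0.699 (0.593 to 0.827) that was 0.786 (0.649 to 0.958) without each library's highest cell. On a log2 scale the ratio over all T-gated cells was -0.517, beside a median of -0.249 for all genes tested in them. Of the 183 Early T-gated UMIs 52, 38 and 27 lay in 3 cells of 39057 to 52654 UMIs, and Xcl1 was found in 14 of 156 Early (8.97%) and 160 of 1064 Advanced T-gated cells (15.0%), or an expected 3.59% and 3.44% after thinning. The lower T-gated level thus was not seen in the share of cells, from which no order is read. T cells in neither the CD4, CD8 nor gamma delta class stood at 47.3 CPM (32.6 to 66.5) in Early and 107 CPM (94.2 to 121) in Advanced. Of their 33 and 258 UMIs, 16 and 136 lay in 1 cell each, and the ratio without these cells was 2.07 (1.24 to 3.67). CD8 cells without Il2rb were at 174 CPM in Early and 6.55 CPM in Advanced (52 and 19 UMIs), a ratio of 0.0377. The Early UMIs lay in only 2 of 17 cells, with 38 and 14 UMIs, and the Advanced ones in 10 of 232 cells. Without each library's highest cell the ratio was 0.0885 (0.0374 to 0.206), which still rests on 1 Early cell. No direction is read for this class from so few cells.

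In CD8 cells with Il2rb, Xcl1 was found in 6 of 20 Early cells with 96 UMIs and in 102 of 287 Advanced cells (35.5%) with 376 UMIs. The level was 226 CPM (183 to 276) and 93.2 CPM (84.0 to 103), a ratio of 0.412 that became 0.787 (0.573 to 1.10) without each library's highest cell. That Early cell held 52 of the 96 UMIs and had 52654 UMIs in all with 101 CD3 UMIs; whether such a barcode held more than 1 cell was not tested. B-gated cells had 7 and 41 Xcl1 UMIs, each in a cell of its own, which is 0.128% (0.0509 to 0.268) and 0.843% (0.602 to 1.15) of the level in T-gated and NK-gated cells, as for the T cell genes above. All of the cDC-gated Xcl1 in Advanced, 26 UMIs, lay in 1 of 96 cells.

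Xcl1 and Cxcr3 tended to lie in the same CD8 cells as Ccl5. Among Advanced CD8 cells with Il2rb and 10000 to 20000 UMIs, Xcl1 was found in 82 of 158 cells with Ccl5 (51.9%, 43.8 to 59.9) and in 3 of 69 without it (4.35%, 0.906 to 12.2). Cxcr3 was found in 97 of these 158 (61.4%, 53.3 to 69.0) and 12 of these 69 (17.4%, 9.32 to 28.4), and Ccl4 in 24 (15.2%, 9.98 to 21.8) and 2 (2.90%, 0.353 to 10.1). The Early class had only 10 cells in this depth range, with Xcl1 in 3 of 5 with Ccl5 and 0 of 5 without, and Cxcr3 in 4 of 5 and 1 of 5. These shares compare cells of 1 library at similar depth and are a description of those cells.

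The cells that can bind Xcl1 were few. Cells with 2 or more Xcr1 UMIs numbered 5 in the cDC gate, 5 in the monocyte gate and 6 ungated in Early, and 6, 6 and 9 in Advanced. All 5 and all 6 of the cDC-gated ones had Clec9a, the marker of cross-presenting cDC, as did 4 of 5 and 5 of 6 monocyte-gated ones, and 6 of 6 and 7 of 9 ungated ones. None was B-gated or pDC-gated. The monocyte gate thus held cells with cross-presenting cDC markers, and its values include them. The whole-library Xcr1 level was 1.26-fold higher in Advanced (1.06 to 1.49).

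Cxcl9, the ligand of Cxcr3 most tied to interferon gamma, was held mostly by cDC-gated and monocyte-gated cells and by very few of them. In Early the cDC gate held 115 of 180 UMIs in 5 of 50 cells, with 87 in 1 cell, and all 5 were among the 6 cDC with Clec9a or Xcr1. The monocyte gate held 30 more in 3 of 123 cells. In Advanced the monocyte gate held 399 of 541 UMIs in 6 of 216 cells, with 368 in 1 cell, and the cDC gate 92 in 3 of 96 cells, with 80 in 1 cell. The cell with 368 Cxcl9 UMIs had 78 monocyte, 15 cDC and 4 pDC marker UMIs. The monocyte-gated ratio of 8.58 (5.91 to 12.9) fell to 2.22 (1.03 to 5.30) without each library's highest cell and turned to 0.677 (0.387 to 1.18) under stricter gates, and the cDC-gated ratio was 0.383 (0.288 to 0.508) and then 0.205 (0.0950 to 0.416). Ungated cells held 33 Early and 38 Advanced Cxcl9 UMIs, 18 and 26 of them in cells with markers of both B cells and a lineage other than T. B-gated cells had 2 of 7593 and 9 of 5860 with a Cxcl9 UMI. No direction between the stages can be read for Cxcl9 in either gate from so few cells.

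Cxcl10, induced by interferons of both types, was less confined to myeloid-gated cells. In Early 1 monocyte-gated cell held 192 of the gate's 195 UMIs, and it also held 21 Cxcl9 UMIs; the cDC-gated cell with 87 Cxcl9 UMIs held 36 of the gate's 37 Cxcl10 UMIs. In Advanced the monocyte gate had 10 UMIs in 3 of 216 cells and the cDC gate 3 UMIs. Ungated cells held the most there, 158 of 361 UMIs, against 85 of 416 in Early. Of the 158, 80 lay in cells with markers of both B cells and a lineage other than T. The highest Advanced cell held 30 UMIs, with 16 B and 23 cDC marker UMIs, and the next 25, with 22 B and 60 monocyte marker UMIs. The gates thus do not settle how much Advanced Cxcl10 lay in myeloid cells. T-gated cells had Cxcl10 in 11 of 156 Early cells (7.05%, 47 UMIs) and in 40 of 1064 Advanced cells (3.76%, 123 UMIs), or 20.9 CPM (15.3 to 27.8) and 9.98 CPM (8.30 to 11.9). The ratio in T-gated cells was 0.478 (0.339 to 0.684), and it was 0.627 (0.414 to 0.976) without each library's highest cell. After thinning, 1.90% and 0.782% of T-gated cells were expected to keep a Cxcl10 UMI, against 0.0593% and 0.0705% of B-gated cells. CD4 cells with Foxp3, the regulatory T cell factor, had it in 4 of 30 and 9 of 67 cells, at 19.8 CPM (7.97 to 40.9) and 48.6 CPM (34.7 to 66.2), intervals that overlap. One ungated Early cell with 86962 UMIs and 128 CD3 UMIs held 67 Cxcl10, 8 Cxcr3 and 10 Ifng UMIs.

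Cxcr3, the receptor of Cxcl9 and Cxcl10, was most frequent in pDC and in CD8 cells with Il2rb, and about as frequent in both libraries. It was found in 27 of 57 Early pDC (47.4%, 33.98 to 61.03) and in 42 of 86 Advanced pDC (48.8%, 37.9 to 59.9), at 63.6 and 53.7 CPM, a ratio of 0.844 (0.585 to 1.23). In CD8 cells with Il2rb it was found in 9 of 20 (45.0%, 23.1 to 68.5) and 135 of 287 (47.0%, 41.1 to 53.0), at 37.7 and 63.9 CPM, a ratio of 1.70 (1.02 to 3.01). CD8 cells without Il2rb had it in 0 of 17 Early cells, which allows a share of cells with a UMI of up to 17.6% (3 counts of the 17 cells), and in 32 of 232 Advanced cells (13.8%, 9.63 to 18.9). In Advanced the interval for CD8 cells with Il2rb thus lay above that for CD8 cells without it. Per cell the counts were low, with at most 5 and 6 UMIs in a pDC.

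CD4 cells went the other way, from 71.3 to 40.8 CPM, a ratio of 0.571 (0.407 to 0.809), with Cxcr3 in 18 of 60 (18.8% to 43.2%) and 33 of 242 cells (13.6%, 9.58 to 18.6). Over all T-gated cells the level was 35.6 and 40.9 CPM, a ratio of 1.15 (0.907 to 1.48), and the share of cells was 21.8% and 23.5%. After thinning to 1000 UMIs, 3.34% and 3.63% of T-gated cells were expected to keep a Cxcr3 UMI, and the ratio of these shares was 1.09 (0.433 to 3.45). A single seeded draw of that thinning kept it in 3 of 155 and 37 of 1062 cells, a ratio of 1.80 (0.570 to 9.13), whose interval also spans 1. A difference in the share of T-gated cells with Cxcr3 was thus not detectable at this depth. T-gated cells held 80 of 318 Early and 504 of 1136 Advanced Cxcr3 UMIs, B-gated cells 120 and 234, and ungated cells 53 and 284. The B-gated level was 2.22-fold higher in Advanced (1.78 to 2.79). More T-gated cells therefore went with only part of the 2.90-fold higher whole-library Cxcr3 level.

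**Figure D5:**
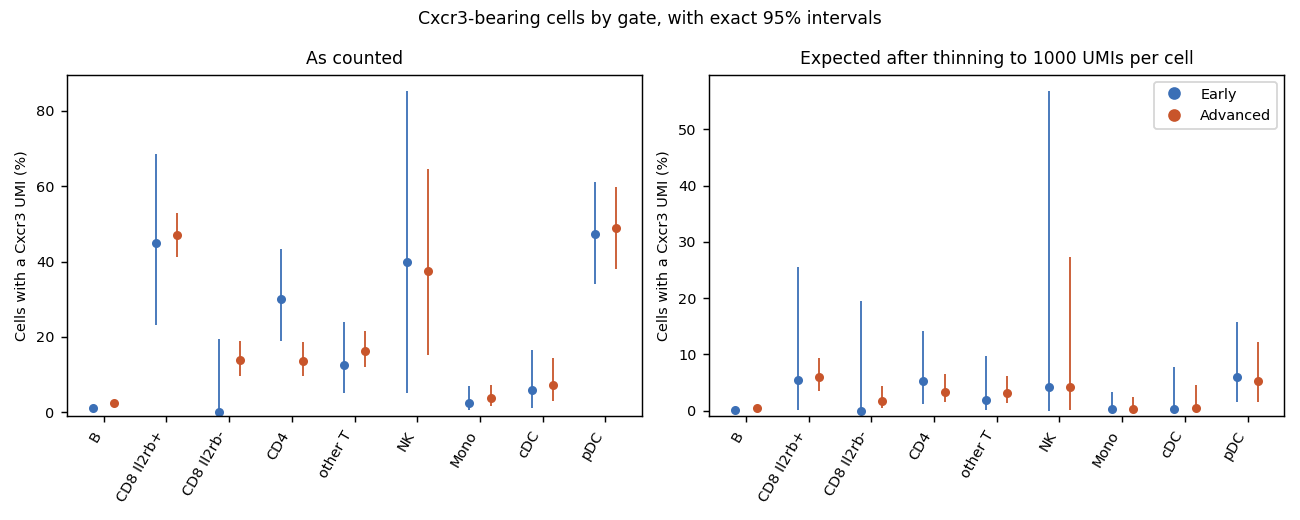
Points give the percent of cells with a Cxcr3 UMI in each gate, as counted (left) and by the share expected after thinning every cell to 1000 UMIs (right), Early in blue and Advanced in orange, with exact 95% intervals taken at the expected count on the right. pDC and CD8 cells with Il2rb stand at 45.0% to 48.8% in both libraries, and B-gated cells at 1.17% and 2.54%.

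B-gated cells held 120 Early and 234 Advanced Cxcr3 UMIs, in 1.17% and 2.54% of cells, and 0.154% and 0.394% after thinning. Their level was 5.81% (4.35 to 7.79) and 11.1% (9.50 to 13.0) of that in T-gated and NK-gated cells, well above the ratios of the T cell genes, and part of it lay in cells with several UMIs. The 17 Early and 45 Advanced B-gated cells with 2 or more held 48 and 130 UMIs. Ighd, the heavy chain of naive B cells, was at 276 CPM (218 to 345) and 417 CPM (365 to 475) in them, against 648 CPM and 630 CPM in B-gated cells without Cxcr3. Ighm was at 1772 and 1617 CPM against 2608 and 2678 CPM. Zbtb32, a factor of memory and activated B cells, was at 10.7 CPM (2.21 to 31.4, all 3 UMIs in 1 cell) and 18.0 CPM (8.63 to 33.1, in 5 of 45 cells), against 0.973 and 1.81 CPM. Trbc2 was at 0 UMIs in Early and 10.8 CPM (3.96 to 23.5) in Advanced, against 1.67 and 13.7 CPM, and Bst2, high in pDC, at 43.0 CPM (22.2 to 75.0) and 39.6 CPM (24.8 to 59.9), against 31.6 and 38.2 CPM. Jchain, the antibody joining chain, was at 6279 CPM in Early, from 3 of 17 cells, and 459 CPM in Advanced, against 315 and 414 CPM. The cells with 2 or more Cxcr3 UMIs thus had less Ighd and Ighm than cells without, and their Trbc2 and Bst2 were not above those of cells without beyond counting error. The B gate itself limited T and pDC marker UMIs, and whether other cells contributed Cxcr3 was not tested. The larger number of B-gated cells with 1 Cxcr3 UMI, 72 Early and 104 Advanced, also had less Ighd, at 459 and 463 CPM, but more Ighm, at 4847 and 7185 CPM. Jchain was at 3907 and 3758 CPM in these cells, from only 10 of the 72 and 19 of the 104. The cells with 2 or more were also deeper, with medians of 12707 and 8997 UMIs against 6564 and 7377, and the limit of 2 UMIs and the genes were chosen after the values were seen.

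Ccr1, a receptor of Ccl3 and Ccl5, had 88.0% and 73.5% of its UMIs in B-gated cells, at 10.0 and 11.9 CPM. These cells also held most UMIs of all genes, 58740112 of 67596192 in Early and 51552850 of 83137727 in Advanced. Over the whole library Ccr1 was at 9.90 and 10.1 CPM, a ratio of 1.02 (0.919 to 1.13). Monocyte-gated cells were at 19.5 and 5.11 CPM, cDC-gated cells at 11.5 and 17.6 CPM, and pDC at 6.36 and 17.7 CPM. Ccr1 was thus not particular to B-gated cells, whereas T-gated cells had only 4 and 3 UMIs. Ifng, the interferon that induces Cxcl9, had 82 UMIs in Early and 225 in Advanced, 2.23-fold (1.73 to 2.91), and in T-gated cells 29 and 115 UMIs, a ratio of 0.724 (0.479 to 1.13). The T-gated log2 ratio of Ifng was -0.465, beside a median of -0.249 for all genes tested in T-gated cells. Of 9 chemokine receptors, which include Ccr1 and Xcr1, 4 reached 10 CPM in the whole library and 1 was higher by the rule used for the members, Cxcr6, at 3.11-fold. Of 22 other chemokines listed, Cxcl11 among them, 2 were tested and 0 were higher. Of 10 inducer and signalling genes, which include Ifng and Tbx21, 5 were tested and 0 were higher. In T-gated cells 3 of the receptors and 8 of the inducer and signalling genes were tested and 0 were higher. Cxcl11, the remaining Cxcr3 ligand, was not analysed here.

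The genes whose levels followed each member most closely over 19 gate and library combinations, of 10945 genes compared by Pearson's r of log2(CPM + 10), differed between members. Klrk1, an activating receptor of NK and memory CD8 cells, led for Ccl5 (0.86), followed by Mettl27 (0.81), 1700025G04Rik (0.80) and Kif2a (0.80). Arl4d (0.93), Crtam (0.90), Dmrta1 (0.87) and Klrc2 (0.83) led for Xcl1; Crtam is a receptor of activated cytotoxic T cells and Klrc2 an NK receptor. Hdc, the histamine-forming enzyme of basophils and mast cells, was second for Ccl3 (0.95), beside Gm10384 (0.95), Rab44 (0.93) and Arap3 (0.93), and the basophil point of Ccl3 was the single cell described above. Cxcl9 was followed by Rnf217 (0.97), Atf3 (0.97), Gfra2 (0.96) and Tmem150b (0.96), and Ccl4 by Rbfa (0.90), Ephb2 (0.87), Fads2 (0.86) and Gm26930 (0.86). Cxcl10 was followed by Ubash3b (0.79), Prdm1 (0.78), Mindy3 (0.76) and Plekha8 (0.76), and Cxcr3 by Tex264 (0.86), Ccs (0.86), Rnaset2a (0.84) and Fyn (0.83). The highest points of Cxcl9, Ccl4 and Cxcl10 also rested mostly on 1 cell each. That cell held 368 of 399 Cxcl9 UMIs (Advanced monocyte gate), 132 of 134 Ccl4 UMIs (Advanced basophil gate) and 192 of 195 Cxcl10 UMIs (Early monocyte gate). These correlations run over gates that share 2 libraries and differ in depth, they carry no p value, and they say nothing of shared control.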

How the data were processed

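Single-cell RNA libraries of PLNs from TNF-Tg mice were analysed, 1 pooled library per stage. The deposited counts are whole numbers of UMIs that the authors assigned to each gene in each barcode they called as a cell, with no scaling and no removal of free RNA. The file headers give Cell Ranger 6.0.1. The notes of the submitters list versions 3.1 and 3.1.0 of that tool, with Seurat 4.0.3 and mm10, and which version applies, and so which reads and barcodes were counted, was not resolved. The members, gene lists and gates were chosen with earlier results of these data known. Cells with fewer than 200 genes (21 Early, 18 Advanced) were left out. A gate needed at least 3 marker UMIs (2 for NK cells). B-gated cells could hold 1 T marker UMI and 2 of each other lineage. T-gated cells could hold 4 B marker UMIs and 2 of each myeloid lineage, with no limit on NK markers. NK-gated and myeloid-gated cells could hold 4 B marker UMIs, and 2 (NK) or 1 (myeloid) of T. Their gates set no limit on each other's markers, and a cell that met several took the largest sum. Cells over these limits, with a tie or with no gate met were left ungated, and no doublet caller was run. CD8 T cells were split by Il2rb, CD4 T cells by Foxp3 and cDC by Ccr7. Genes were called at 10 CPM or more in 1 library with a ratio interval wholly beyond 2-fold; no test was possible. Shares were also computed after thinning cells to 1000 UMIs, by 1 seeded draw and, added after seeing that single draws varied, as the expected share over all draws, which the text prints. All 7 members were named, with the 4 genes most like each by Pearson's r (gates of at least 20 cells, genes of at least 10 CPM in 1 gate) and the partners Ccr1, Xcr1 and Ifng; a further partner is not reported here. The splits of cDC and ungated cells and the UMI limits within B-gated cells were chosen after values were seen. Alternatives were stricter gates (5 marker UMIs, 3 for NK), the highest cell left out, equal weight per cell, other totals, a 1000 UMI minimum, other CPM minimums and thinning depths and, added after seeing the data, the shared barcodes left out and ungated CD3-positive cells counted as T cells. Positions came from the GENCODE annotation of GRCm38. Computations used Python 3.11.15, numpy 2.4.6, scipy 1.17.1, pandas 2.3.3 and matplotlib 3.10.9, and were tested on simulated data. No sample column was left unused (0).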

Additional observations from a re-analysis of the deposited data

How the results depend on the processing

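No paired analysis was possible because each stage was 1 pooled library, and for the same reason no replicate could be left out. The number of members higher in Advanced was 3 as reported, 5 with totals that leave out immunoglobulin, ribosomal, mitochondrial and haemoglobin genes, 1 with a minimum of 50 CPM and 5 with no minimum. The Advanced share of Ccl5 in T-gated and NK-gated cells, 68.0%, was 62.0% with stricter gates and 82.4% with ungated cells of 3 or more CD3 UMIs counted as T cells. The Ccl5 ratio in T-gated cells, 6.00, was 6.64 with stricter gates, 7.52 without the highest cell, 4.34 with equal weight per cell and 7.02 with the other totals. The Advanced B-gated Ccl5 level, 0.922% of the T-gated level, was 1.28% with equal weight per cell and 0.851% with the other totals. Both reversals came with few cells: Cxcl10 over the whole library went from 0.706 to 1.20 without its highest cell, and Cxcl9 in monocyte-gated cells from 8.58 to 0.677 with stricter gates. Of 30 alternative values for the 5 main results 19 stayed within the counting interval or within 1.5 times the count and 11 moved; of 189 for 38 further results 167 stayed, 20 moved and 2 reversed. Beyond the 2 reversals built from leaving cells out, the cause of these moves was not tested. Depth limits the small gates most: 5 Early NK-gated and 20 Early CD8 cells with Il2rb carry the Early side of their ratios.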
